A study of Mus musculus with 4 samples.

Results

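The interferon regulatory factor (IRF) genes encode a family of transcription factors. The 8 listed genes, Irf1, Irf2, Irf3, Irf4, Irf5, Irf7, Irf8 and Irf9, were found by symbol among the 21900 protein-coding genes of the mouse RefSeq table of GRCm38, and all 8 were matched. KAP1 ChIP-seq of regulatory T cells from the spleen of C57BL/6 mice was read at these genes. The cells had been sorted and expanded in culture for 2 weeks. KAP1 (Trim28) is a corepressor brought to DNA by zinc finger proteins of the KRAB family. The series has 2 KAP1 samples, made with an anti-KAP1 antibody, and 2 inputs with no antibody, which were not analysed here. No other treatment, allele or time point is given, and the animals' age is not stated in the labels.

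IRF proteins share an N-terminal DNA-binding domain that reads GAAA repeats, the core of the interferon-stimulated response element. IRF3, IRF5 and IRF7 act downstream of nucleic acid sensors, IRF9 is the DNA-binding part of the complex that answers type I interferon, IRF1 and IRF2 bind the same elements with largely opposed effects, and IRF4 and IRF8 pair with other factors in lymphoid and myeloid cells. In regulatory T cells IRF4 is known for its part in the effector program. A KAP1 summit is a position of enrichment of KAP1 on chromatin. It does not measure expression, so neither the activity of these genes nor the labelled cell type can be checked from these lists.

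Each KAP1 sample has 1 deposited list of summits, with 8862 in replicate 1 and 79515 in replicate 2. The caller's score of a summit is a −log10 p-value or q-value and is given below with its percentile, the share of summits in the same list with a score at or below it. A summit was called shared when the lists placed one within 200 bp of each other, which held for 87.1% of replicate 1 summits and 9.71% of replicate 2 summits. Positions are mm10. A summit within 1 kb of either edge of a gene was placed at its end, one deeper inside was placed in its body, and the region searched reached 20 kb beyond both edges. The lists give no read depth. Nothing in the labels ties the replicates to separate animals or cultures, so their differences may be technical.

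The reference promoters of the 4 genes on which the positions below turn are shown first. They are the 250 bases upstream of the first listed RefSeq start of GRCm38.p6, read on the coding strand from 5′ to 3′, at chr13:30748983-30749232 for Irf4, chr14:55603735-55603984 for Irf9, chr11:53769764-53770013 for Irf1 and chr8:46739495-46739744 for Irf2, all on the + strand. Capitals mark matches to the letters GAAA, any 2 bases and GAAA (the core of the interferon-stimulated response element), GGAA, any 2 bases and GAAA (an element for ETS and IRF factors together), TTCNNNGAA (a STAT site) or TGANTCA (an AP-1 site) on either strand. The GC box GGGCGG was also searched and is left in lower case. No summit of either replicate lay in any of these 4 windows. Irf4 is shown because the highest-scoring shared summit of the family lay just upstream, Irf9 because a shared summit lay just downstream of its start, and Irf1 and Irf2 for the motif matches they hold.
Irf4: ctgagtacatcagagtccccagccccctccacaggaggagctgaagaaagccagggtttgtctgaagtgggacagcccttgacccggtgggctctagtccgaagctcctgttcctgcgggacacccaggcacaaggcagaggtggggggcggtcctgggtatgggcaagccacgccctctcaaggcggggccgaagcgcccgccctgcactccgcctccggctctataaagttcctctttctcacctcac
Irf9: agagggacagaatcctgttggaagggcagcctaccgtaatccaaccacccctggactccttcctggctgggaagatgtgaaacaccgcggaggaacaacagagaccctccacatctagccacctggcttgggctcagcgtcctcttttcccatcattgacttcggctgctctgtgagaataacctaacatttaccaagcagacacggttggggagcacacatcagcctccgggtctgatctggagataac
Irf1: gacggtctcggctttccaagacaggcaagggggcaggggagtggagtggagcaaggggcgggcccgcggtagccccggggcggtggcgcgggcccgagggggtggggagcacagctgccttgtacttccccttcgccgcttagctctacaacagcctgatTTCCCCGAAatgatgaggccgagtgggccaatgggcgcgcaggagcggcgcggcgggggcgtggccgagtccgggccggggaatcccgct
Irf2: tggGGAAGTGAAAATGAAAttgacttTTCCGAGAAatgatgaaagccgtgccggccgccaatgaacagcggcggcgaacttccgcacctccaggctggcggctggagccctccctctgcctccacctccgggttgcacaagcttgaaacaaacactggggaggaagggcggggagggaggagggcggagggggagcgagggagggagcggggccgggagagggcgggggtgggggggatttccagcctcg

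The Irf2 window holds an ETS-IRF match from 247 to 238 bases upstream of the start that overlaps a response element match from 241 to 232 bases upstream, followed by a STAT match from 224 to 216. In the Irf1 window the STAT match spans 90 to 82 bases upstream. The Irf4 and Irf9 windows hold no match to these 4 motifs. Among the 11 promoter windows that the table lists for the 8 genes, the response element and the ETS-IRF element were each found in 1 window, that of Irf2, against 2.98% and 2.30% of all 32851 windows of the same length. STAT matches were found in 3 windows, of Irf1, Irf2 and Irf8, against 7.02% of all windows, and AP-1 matches in 0 windows, against 6.75%. GC boxes were found in 8 windows, against 32.7% of all windows, and Irf7 was the only gene with none. The GC content of the windows shown was 63.6% for Irf4, 54.4% for Irf9, 71.2% for Irf1 and 65.2% for Irf2, against a median of 52.4% over all windows. A match describes letters of the reference and is not evidence that a factor was bound.

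KAP1 summits found in both replicates were present in or near 6 of the 8 IRF genes, and Irf3 and Irf7 had none within 20 kb. Shared summits lay at an end of 2 of the 8 genes, Irf4 and Irf9, against 8.55% of all coding genes. In the body they lay in 2 of 8, Irf2 and Irf5, against 12.4% of the 19304 coding genes over 2000 bp in length. Within 20 kb they lay by 6 of 8, against 32.7% of coding genes. The list is short and its members were chosen with earlier results of these data known, so no test was made over it.

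All 9 replicate 1 summits within 20 kb of the IRF genes had a replicate 2 partner, and each had an IRF gene as its nearest coding gene. Of these 9, 2 lay at gene ends, 4 in gene bodies and 3 farther out. The paired summits were 0 to 22 bp apart with a median of 3 bp, against a median of 6 bp over all 7720 shared summits. Replicate 2 placed 34 summits in the same regions, of which 25 had no replicate 1 partner. The nearest replicate 1 summit to any of those 25 was 1626 bp away, so none was near the pairing distance of 200 bp. At the other limits, the Irf1 summit of replicate 2 lay 898 bp from an edge, just inside the 1 kb window, and replicate 2 summits of Irf5 and Irf3 lay just outside it at 1069 and 1179 bp. The outermost summit counted lay 19443 bp beyond Irf9, and the nearest ones left out were of replicate 2, at 20259 bp from Irf7 and 20571 bp from Irf1.

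**Figure D1:**
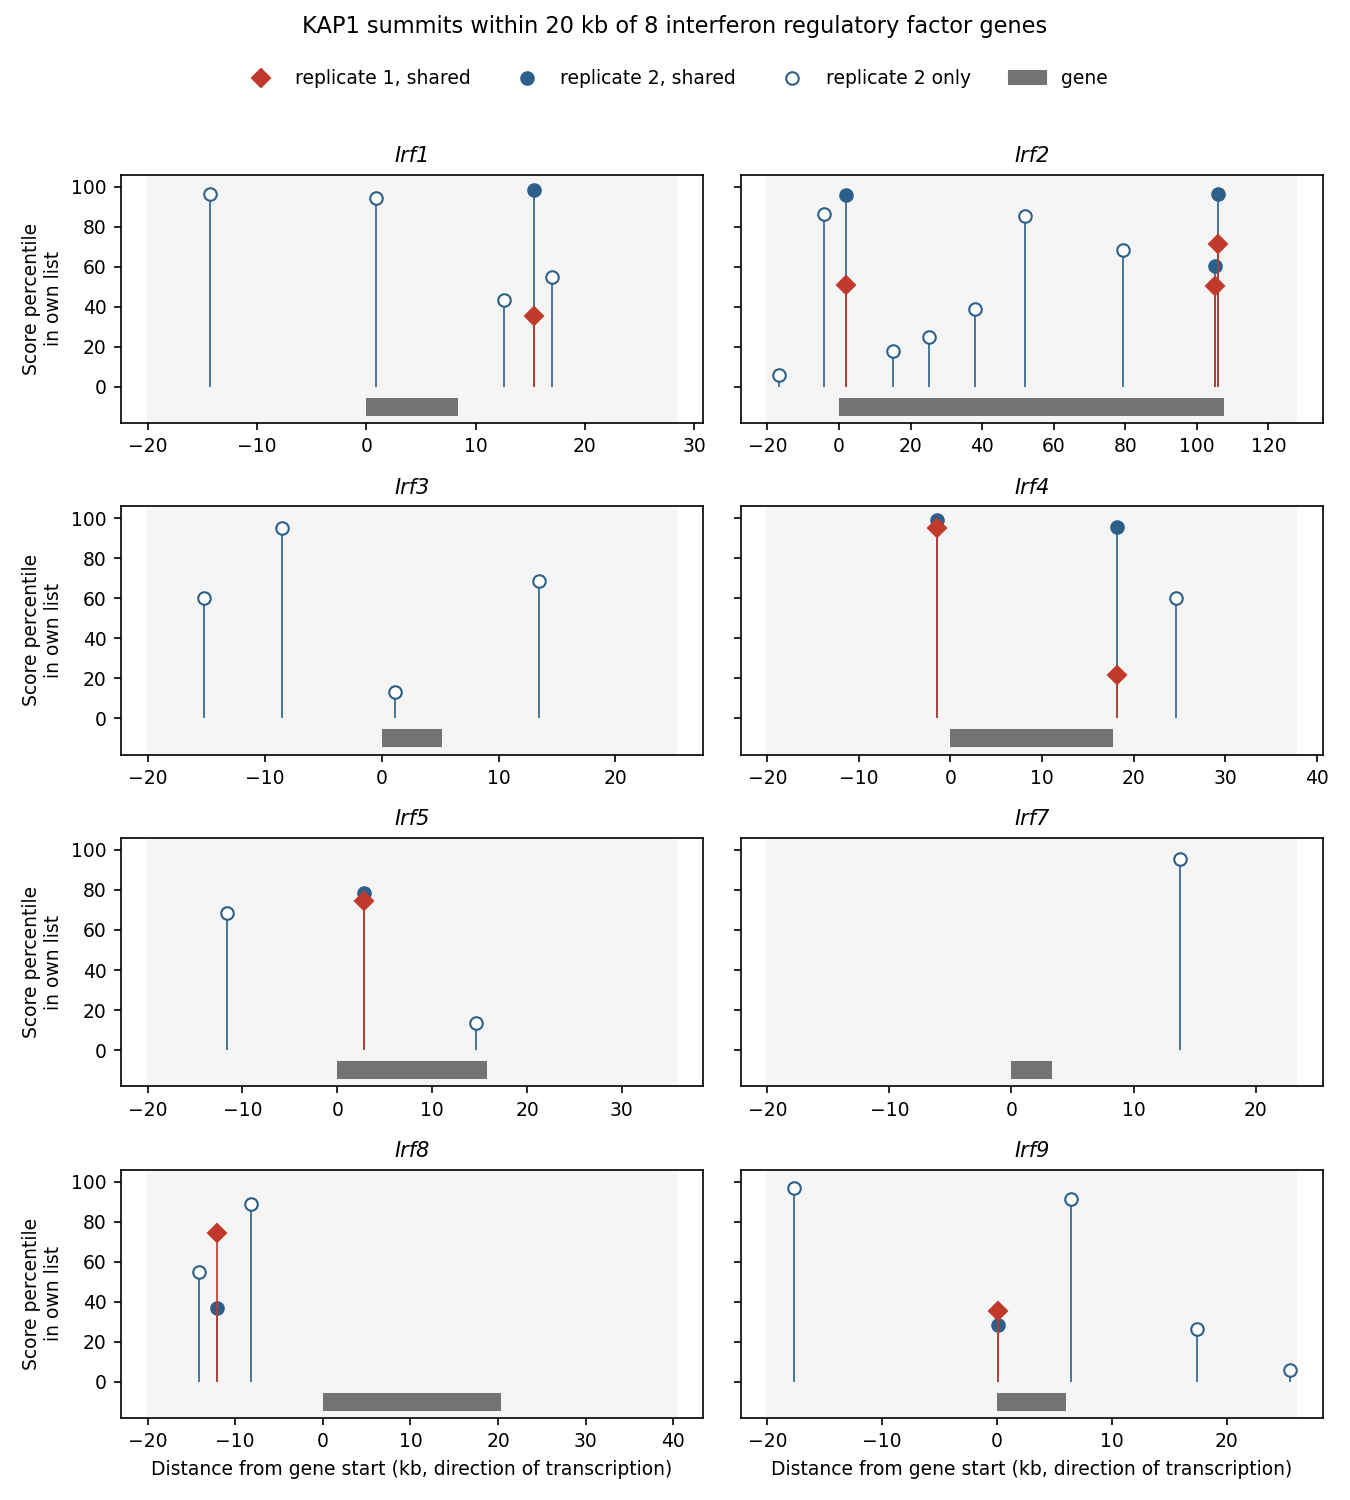
KAP1 summits within 20 kb of each IRF gene, by distance from the gene start in the direction of transcription (kb) and score percentile within the summit's own list. Diamonds are replicate 1, filled circles replicate 2 summits with a replicate 1 partner, open circles replicate 2 summits without one, dark bars the genes and pale shading the region searched; Irf3 and Irf7 show open circles only, and every diamond has a filled circle beside it.

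Irf4, the family member tied to activated lymphocytes and effector regulatory T cells, carried the highest-scoring shared summit of the 8 genes. The gene lies on the + strand of chromosome 13 from 30749233 to 30766981. At position 30747788, 1445 bp upstream of its start in intergenic sequence, the caller's score was 29.8 in replicate 1 (percentile 95.1), and 2 bp away it was 46.3 in replicate 2 (percentile 99.2). This summit ranked near the top of both lists, although it lies outside the 1 kb window that defines a gene end.

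Both replicates placed a second Irf4 summit on the same base, position 30767403, which is 422 bp beyond the far end of the gene. Its score was 5.05 in replicate 1 (percentile 21.9) and 20.7 in replicate 2 (percentile 95.6), so it ranked low in one list and high in the other. The remaining Irf4 summit was seen in replicate 2 alone, 6888 bp beyond the far end, with a score of 9.26. Irf4 was thus flanked on both sides by shared summits and had none of either replicate inside the gene.

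Strand, read from the promoter table for 17492 coding genes, separated starts from far ends, a split made after the data were seen. Shared summits lay within 1 kb of the start in 7.44% of those genes and within 1 kb of the far end in 1.25%. Among the IRF genes the start was marked for 1 of 8, Irf9, and the far end for 1 of 8, Irf4. Counting all listed transcript starts, 8.16% of genes had a shared summit within 1 kb of one, and Irf9 remained the only IRF gene with one. A shared summit in the 2 kb upstream of the start was found in 5.58% of these genes and in 1 of the 8 IRF genes, Irf4. Shared summits both in those 2 kb and at the far end were found in 16 of the 17492 genes (0.0915%), Irf4 among them. The windows match where the Irf4 summits lie and were not planned, so this share does not show how unusual Irf4 is.

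Irf8, which directs the development of myeloid cells and B cells, had its summits well away from the gene (chromosome 8, 120736358 to 120756694, + strand). The shared summit lay 12125 bp upstream of the start, in intergenic sequence, with a score of 11.9 in replicate 1 (percentile 74.5) and 7.44 in replicate 2 (percentile 37.0). Of the 9 shared summits, this one and that of Irf9 were the only ones with a higher percentile in replicate 1 than in replicate 2. Replicate 2 alone had 1 further summit on each side of it, 14115 and 8235 bp upstream, with scores of 9.16 and 14.6. No summit of either replicate lay at an end of Irf8 or in its body.

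Irf1, an activator of interferon-responsive and antigen presentation genes, had 1 shared summit, beyond its far end. The gene spans 53770014 to 53778374 on the + strand of chromosome 11. The shared summit lay 7012 bp past it in intergenic sequence, with a score of 5.24 in replicate 1 (percentile 35.5) and 30.1 in replicate 2 (percentile 98.0). Replicate 2 alone placed a summit at the start, 898 bp inside the gene and 439 bp from the second listed start, with a score of 18.9 (percentile 94.4). A replicate 2 summit 14274 bp upstream had a score of 21.5 (percentile 96.0) and likewise no partner. The start of Irf1 was therefore marked in 1 of the 2 lists only.

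Irf2, which binds the same elements as IRF1 and is known mainly as its antagonist, held the most shared summits of the family, 3, all inside the gene. It is also by far the longest of the 8, at 107714 bp (chromosome 8, 46739745 to 46847458, + strand), against 3317 to 20337 bp for the others. The first lay 2058 bp into the gene, with a score of 7.27 in replicate 1 (percentile 50.9) and 20.6 in replicate 2 (percentile 95.6). The others lay near the far end, 746 bp apart in replicate 1 and 744 bp apart in replicate 2.

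Of that pair, the summit 2553 bp before the far end had scores of 7.25 and 9.31 in replicates 1 and 2 (percentiles 50.5 and 60.2). The one 1807 bp before the far end had scores of 10.7 and 22.1 (percentiles 71.2 and 96.2). Between the first summit and this pair, the gene held replicate 2 summits alone, 5 in all, with scores from 6.42 to 13.4. Whether these positions fall in exons or introns was not determined, because the gene table gives no exons.

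Gene length bears on these counts. Among the 3717 coding genes of 0.5 to 2 times the length of Irf2, 25.9% held a shared summit in the body and 3.52% held 3 or more. For Irf5, 8.97% of the 7802 genes of like length held one in the body. Within 20 kb, the share of genes with a shared summit ran from 28.6% at the length of Irf7 to 40.8% at the length of Irf2. Irf4, with 2 shared summits, was matched or exceeded by 13.6% of the 7923 genes of its length, and Irf2, with 3, by 8.29%.

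**Figure D2:**
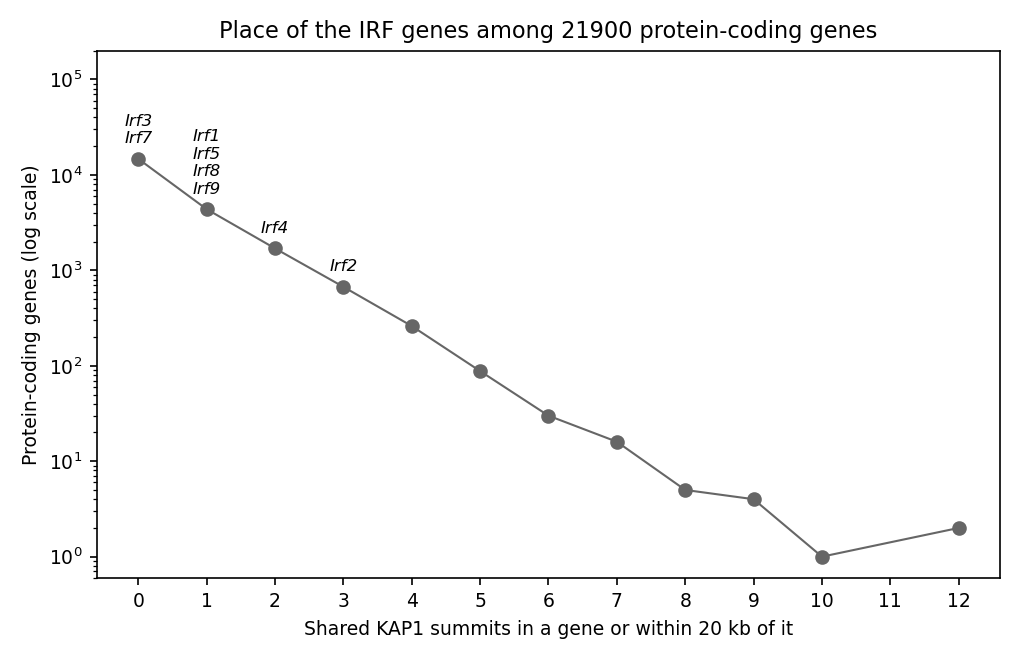
Number of protein-coding genes (log scale) by the count of shared KAP1 summits in a gene or within 20 kb of it, with the IRF genes named above their count. Of 21900 genes, 14744 had 0, as did Irf3 and Irf7; Irf1, Irf5, Irf8 and Irf9 had 1, Irf4 had 2 and Irf2 had 3.

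Irf9 encodes the DNA-binding subunit of the interferon-stimulated gene factor complex. It was the only member with a shared summit at its start. The gene lies on the + strand of chromosome 14 from 55603985 to 55610030, and the summit lay 69 bp inside it in replicate 1 and 70 bp in replicate 2, just past the promoter bases printed above. Its scores were low in both lists, 5.10 in replicate 1 (percentile 35.3) and 7.15 in replicate 2 (percentile 28.3). Of the Irf9 summits seen in replicate 2 alone, one lay 366 bp beyond the far end with a score of 16.0 (percentile 91.2) and one 17699 bp upstream with a score of 23.1 (percentile 96.6). That upstream summit lay nearer to another gene, 911 bp outside Emc9. At Irf9 the shared position was thus not the highest-scoring one of replicate 2.

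The 3 members that act downstream of nucleic acid sensors had 1 shared summit between them. Irf5, which works below Toll-like receptors, had 1, in its body 2852 bp from the lower edge of the gene and 2357 bp from the listed start. Its scores were 11.9 in replicate 1 (percentile 74.5) and 12.1 in replicate 2 (percentile 78.5), a similar standing in both lists. A replicate 2 summit 1069 bp inside the far end of Irf5 (score 5.64) lay only 27 bp from the edge of the overlapping gene Tnpo3.

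Irf3, the factor that TBK1 phosphorylates to start interferon production, had no replicate 1 summit within 20 kb, and the nearest shared summit lay 35373 bp away inside Prr12. Replicate 2 alone placed 4 summits by Irf3. One was in the gene, 1179 bp past its start, with a low score of 5.64 (percentile 13.4). The highest lay 8490 bp upstream with a score of 19.8 (percentile 95.1), within the noncoding gene Gm15545. That summit lay nearer to another coding gene, 2064 bp outside Bcl2l12. Irf3 sits among close neighbours, and the other 2 summits lay inside Prmt1 and Scaf1.

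Irf7, the interferon-inducible member that amplifies type I interferon production, had the fewest summits of all. It is the shortest of the 8 at 3317 bp (chromosome 7, 141263183 to 141266499) and the only one on the − strand. Replicate 2 placed 1 summit, 10467 bp beyond its far end and inside Phrf1, with a score of 20.4 (percentile 95.5). The nearest shared summit lay 36442 bp away inside Deaf1. Neither list had a summit at an end of Irf7 or in it.

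Across the 9 shared summits the scores ran from 5.05 to 29.8 in replicate 1 and from 7.15 to 46.3 in replicate 2. Their median percentile was 50.9 in replicate 1, against 61.5 for all shared summits, and 95.6 in replicate 2, against 81.2. The lists differ in length, so the percentiles show standing within a list and not a change between samples. Of the 11 replicate 2 summits by IRF genes at or above percentile 90, 6 had no replicate 1 partner, and over the whole list this held for 61.8% of the 7984 summits at that level. High-scoring summits without a partner were thus common both at these genes and over the whole list.

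**Figure D3:**
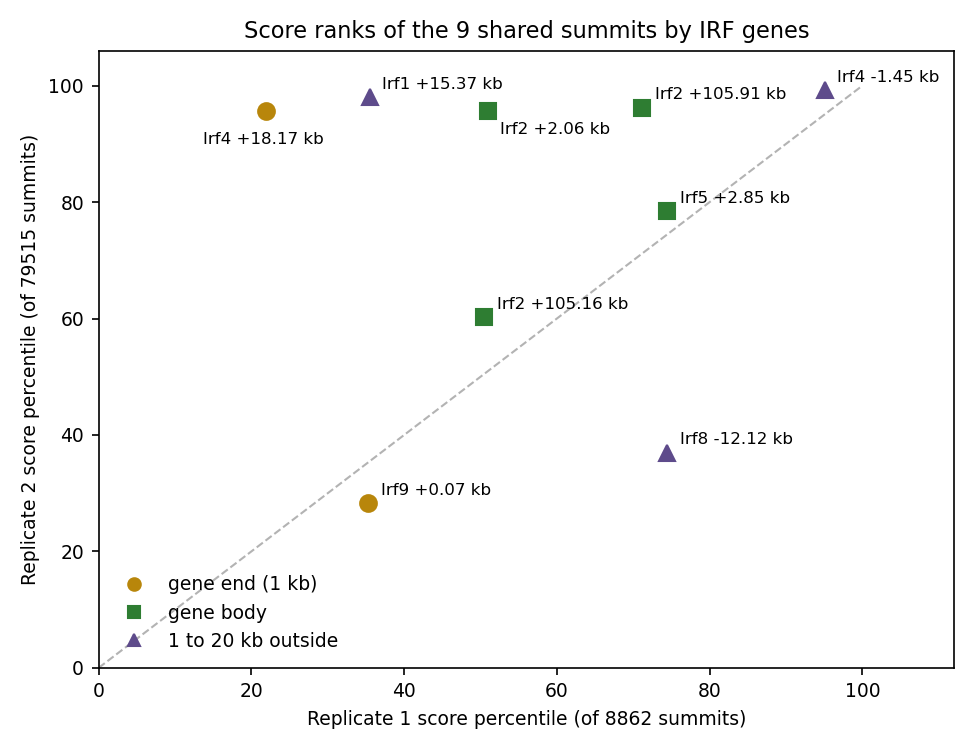
Score percentile of each of the 9 shared summits in replicate 1 (horizontal axis) and replicate 2 (vertical axis), labelled by gene and distance from the gene start in kb; symbols give the location and the dashed line marks equal percentiles. The Irf4 upstream summit is high in both lists (95.1 and 99.2), the Irf4 far end and Irf1 summits are high in replicate 2 only, and the Irf9 summit is low in both.

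With each replicate's own list, the 2 genes with an end summit in replicate 1 were Irf4 and Irf9 (9.40% of coding genes), and replicate 2 added Irf1 for 3 of 8 (22.2% of coding genes). In the body, replicate 1 marked 2 of 8 (13.3% of coding genes) and replicate 2 marked 3 of 8 (54.4%), the addition being Irf3. Within 20 kb, replicate 1 marked 6 of 8 (34.2%) and replicate 2 all 8 (80.8%). With scores at or above the median of each list, 0 of 8 genes kept an end summit and 3 of 8 (Irf2, Irf4 and Irf5) had one within 20 kb. The background fell as well in that setting, to 4.99% at ends and 22.0% within 20 kb.

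Other genes of the interferon pathway were read in the same way, in 5 lists by role with 95 names. Of these, 93 were coding genes of the table, and the unmatched names were Mx1 and Mx2, which the table lists as pseudogenes. Shared summits lay at an end of 15 of the 93 genes (16.1%, against 8.55% of all coding genes), in the body of 21 of the 89 over 2000 bp in length (23.6%, against 12.4%) and within 20 kb of 57 (61.3%, against 32.7%). Their median length was 16303 bp, against 17146 bp for all coding genes. No test was made over these lists. With only as many top-scoring replicate 2 summits as replicate 1 has, the end count fell to 4 of 93 (4.30%), near the 3.87% of all coding genes. In that setting 12 of the 89 genes had a body summit (13.5%, against 6.12%). Within 20 kb, 34 of the 93 had one (36.6%, against 17.9%). With ends of 500 bp the end count was 7 (7.53%, against 5.92%), and with ends of 2500 bp it was 26 (28.0%, against 12.7%). With scores at or above the median of each list it was 10 (10.8%, against 4.99%). In replicate 2 alone, 45 of the 89 genes (50.6%) had a body summit, below the 54.4% of all coding genes.

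Interferon receptors and their JAK-STAT proteins had the highest shares. Shared summits lay at an end of 4 of 10 genes, in the body of 6 and within 20 kb of 9. The shares of all coding genes were 8.55%, 12.4% and 32.7%. The median length of these 10 genes was 23924 bp, against 17146 bp for all coding genes. Among coding genes, the body share was 10.7% at the length of Irf8 (20337 bp) and 25.9% at that of Irf2. The list of sensors, adaptors and kinases, with a median of 23228 bp, had a body share of 16.7%. Whether length accounts for the rank of the receptor list was not tested. Stat2, the partner of IRF9, had a shared summit 619 bp inside its start that scored 21.1 in replicate 1 and 17.7 in replicate 2. Jak1, a kinase of interferon receptors, had one 99 bp outside its start (7.25 and 9.24) and 2 in its body. Tyk2 and Ifnar2, the kinase and a chain of the type I receptor, also had end summits (7.64 and 7.90 at Tyk2, 5.10 and 6.27 at Ifnar2). Ifnar1, Ifnar2 and Ifngr1 held 1 body summit each. Ifnar2, Il10rb, Ifnar1 and Ifngr2 all lie on chromosome 16, and genes of the list share summits, so its 18 gene-summit pairs within 20 kb rest on 16 summits.

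Among sensors, adaptors and kinases upstream of IRF3, IRF5 and IRF7, 3 of 24 genes had a shared end summit (12.5%, background 8.55%). In the body 4 had one (16.7%, background 12.4%), and 14 had one within 20 kb (58.3%, background 32.7%). The background is the share of all coding genes. The end summits were at Unc93b1, the chaperone of endosomal Toll-like receptors (8.34 and 12.7), the ubiquitin ligase gene Traf6 (7.64 and 14.5) and the adaptor gene Myd88 (7.25 and 9.08). Irak2, an adaptor kinase, held 3 shared body summits, and Ifih1, Slc15a4 and Tank held 1 each. Tbk1 itself had 0 shared summits within 20 kb and 6 replicate 2 summits.

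Of 12 partners and corepressors of IRF proteins, 2 had a shared end summit (16.7%, against 8.55% of all coding genes). Of the 11 over 2000 bp, 2 had one in the body (18.2%, against 12.4%). Within 20 kb, 8 of the 12 had one (66.7%, against 32.7%). Irf2bp1, a corepressor that binds IRF2, had the highest-ranking shared end summit of the 5 lists, 204 bp outside its start, with scores of 32.8 and 43.4. Batf, the AP-1 factor that binds composite elements with IRF4, had one 308 bp outside its start with low scores (5.10 and 5.75) and 1 in its body. Def6, which encodes an IRF4-binding protein, held 2 in its body.

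Interferon-stimulated genes, the targets of the pathway, were near the background at ends. Of 37, 4 had a shared end summit (10.8%, against 8.55% of all coding genes). Of the 34 over 2000 bp, 6 had one in the body (17.6%, against 12.4%), and 20 of the 37 had one within 20 kb (54.1%, against 32.7%). At ends these were Samhd1, a nucleotide hydrolase gene (25.4 and 22.1), the RNA editing enzyme gene Adar (8.72 and 14.1), the GTPase gene Gbp2 (8.34 and 13.9) and Ifit2 (3.83 and 24.0). Nlrc5, the transactivator of MHC class I genes, and Samhd1 held 2 body summits each, and Gbp4 and Ifi35 held 1 each. Several of these genes lie in clusters, and their 35 gene-summit pairs within 20 kb rest on 31 summits.

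Of 10 genes of effector regulatory T cells, the state in which IRF4 acts, 2 had a shared end summit (against 8.55% of all coding genes). In the body 3 of the 10 had one (against 12.4%), and 6 of the 10 had one within 20 kb (against 32.7%). Tigit, an inhibitory receptor gene, had an end summit with scores of 9.50 and 10.6, and Il1rl1, the interleukin-33 receptor gene, had one 161 bp beyond its far end (6.16 and 11.2). Prdm1, the gene of Blimp-1, held 3 body summits, and Icos and Tigit held 1 each. The split into starts and far ends was made after the data were seen, and 1.25% of coding genes of known strand had a shared summit at the far end. Whether the Il1rl1 summit lay nearer to another gene was not determined.

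**Figure D4:**
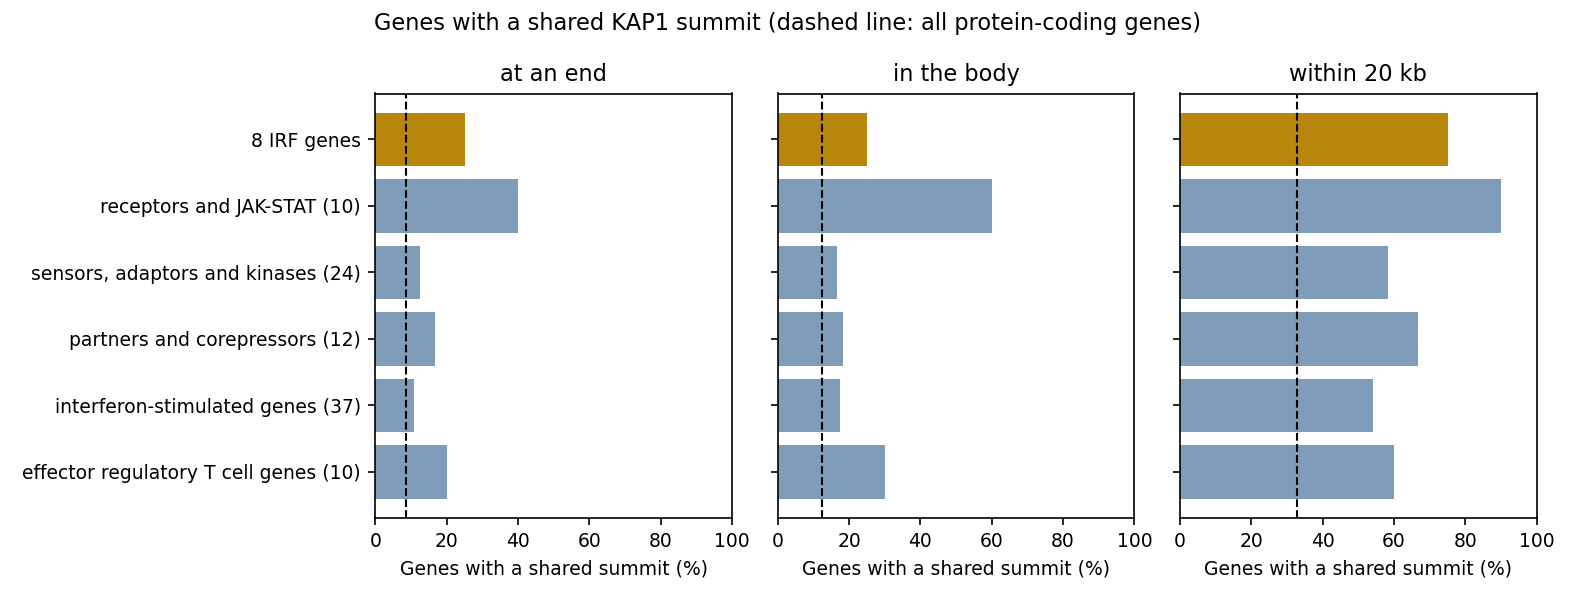
Share of genes (%) with a shared KAP1 summit at an end, in the body and within 20 kb, for the 8 IRF genes and 5 lists of pathway genes (number of genes in brackets); dashed lines mark all protein-coding genes (8.55%, 12.4% and 32.7%). The IRF genes stand at 25.0%, 25.0% and 75.0%, and the receptor and JAK-STAT list has the longest bar in each panel.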

How the data were processed

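KAP1 ChIP-seq was analysed from 2 deposited lists of peak summits, 1 per KAP1 sample. Bowtie2 2.2.9, MACS2 2.2.1, Picard 2.1.1 and the build mm10 are named in the submitters' processing notes, without settings, controls or thresholds. The score in the deposited lists is a −log10 p-value or q-value, and the lists do not say which. Scores were used only within a list. Depth is unknown.

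Genes, edges and biotypes came from the RefSeq table of GRCm38.p6 (the same chromosome coordinates as mm10). Strand and promoter bases came from the RefSeq promoter table, which covers 17492 of 21900 coding genes. Each replicate 1 summit was paired with the nearest replicate 2 summit within 200 bp. Summits were counted at ends (1000 bp), in bodies and within 20 kb with Python 3.11.15, numpy 2.4.6 and pandas 2.3.3, and the counting was tested on simulated summits. With 1 group of 2 samples no test was made, and counts stand beside the share of all coding genes.

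The IRF genes and the 5 pathway lists were chosen with earlier results of these data known. All IRF genes are named, as are the nearest coding genes of their shared summits and, per pathway list, up to 4 genes by rank of the end summit and up to 4 by count of body summits. Il10rb, Ifngr2 and Tbk1 were added after their values were seen, and 1 gene of the planned lists is not reported here. Alternatives covered the pairing distance, scores, list length, windows and single replicates. Starts and far ends were split, and the 2 kb upstream window was added, only once the values were known.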

Additional observations from a re-analysis of the deposited data

How the results depend on the processing

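Pairing distances of 50 and 500 bp left the IRF counts as they were, with the same genes. For the 93 pathway genes, 50 bp gave 13 at ends (14.0%, against 7.99% of coding genes). It gave 19 in bodies (21.3%, against 11.8%) and 53 within 20 kb (57.0%, against 31.3%). With scores at or above the median of each list, 0 genes had a shared summit at an end and 3 had one within 20 kb, and the shared summits by all 8 genes fell from 9 to 5. With only as many top-scoring replicate 2 summits as replicate 1 has, these counts were 1 (Irf4), 3 (Irf1, Irf2 and Irf4) and 5, and 1 gene (Irf2) had a body summit. The shares of all coding genes then were 3.87% at ends, 17.9% within 20 kb and 6.12% in bodies. At the start alone, the far end alone and the listed transcript starts, choices made after the data were seen, 1 gene each had a shared summit. Leaving out 1 replicate in turn gave 2 to 3 genes at ends, 2 to 3 in bodies, 6 to 8 within 20 kb and 9 to 34 summits, and each upper value is replicate 2 alone. A flank of 50 kb gave 14 shared summits and brought in Irf3 and Irf7, and one of 10 kb left out Irf8. The share of all coding genes with a shared summit was 45.7% with the 50 kb flank and 26.1% with the 10 kb flank. With ends of 2500 bp, Irf2 joined Irf4 and Irf9, and 12.7% of all coding genes had a shared end summit.

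No paired analysis was possible because the input samples have no summit list here, and 1 group alone has data. The depth behind either list is unknown, and a gene without a replicate 1 summit is one where none was called.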

Other observations

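The interferon genes themselves were read after the other values were seen. Of 21 coding genes for type I, II and III interferons, 3 had a shared summit within 20 kb (14.3%, against 32.7% of all coding genes), 15 had a replicate 2 summit in that span (71.4%, against 80.8%), and 0 had a shared summit at an end (against 8.55%). All but 1 of the 21 genes are too short to have a body as defined here. Ifna1 and Ifne, neighbours on chromosome 4, share the same pair of summits between them, with replicate 1 scores of 8.34 and 17.0 and replicate 2 scores of 9.56 and 21.9. By Ifnk, on the same chromosome, 2 shared summits lay inside the gene Mob3b. Of the 21 genes, 18 lie on chromosome 4, most of them in one cluster, so they are not separate observations. Ifng, the type II interferon gene, had a replicate 2 summit 60 bp outside its edge with a score of 16.2 and no replicate 1 summit within 20 kb.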
